A study of Saccharomyces cerevisiae with 2 samples.

Results

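The aminoacyl-tRNA synthetase genes of budding yeast are described here by the ratio of recently made to constitutively made histone H3 on their DNA. The 31 genes were chosen by function: 18 code for cytosolic enzymes and 13 for mitochondrial ones, out of 5878 reading frames placed on the array. The list is not complete. The synthetase genes YHR020W, YDR341C, CRS1 and AIM10 are outside it and are described near the end. All 31 had at least 1 used probe in the frame. The values come from Saccharomyces cerevisiae strain MDY513, in which HTZ1, coding for the H2A variant H2A.Z, is deleted. The cells made H3-Myc constitutively and H3-Flag from a galactose-induced gene, were arrested for 4 h with alpha factor, a mating pheromone, at 4 µg/mL, and were then moved to rich medium (YP) with 2% galactose for 180 min. Chromatin precipitated with anti-Flag antibody (Cy3) and with anti-Myc antibody (Cy5) was hybridised together to a 44K tiling array, once for each of 2 replicates. These 2 arrays form 1 group in the same strain, treatment and time, so no strain or time point was compared with another.

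Aminoacyl-tRNA synthetases join each amino acid to its tRNAs, and the charged tRNAs carry the amino acids to the ribosome. Yeast cells translate in the cytosol and, with separate ribosomes and mostly separate synthetases, in mitochondria. The 13 mitochondrial synthetases listed here are coded in the nucleus and imported. Histone H3 is placed on DNA behind the replication fork and, outside S phase, is exchanged at promoters and in frames that are transcribed often, so in cells arrested in G1 the Flag to Myc ratio is read as a record of that exchange.

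Values are given as the log2 ratio of Flag to Myc after subtraction of the same array's median probe, with the mean ± SD of the 2 arrays. A value of 0 is the array's own median and does not stand for equal amounts of both histones. The arrays correlated at r = 0.97 across 34899 used probes, and the median SD between arrays for one probe was 0.16. The deleted gene was checked first: its 1 frame probe was too dim to use, and its promoter probe stood at 1.73 and 1.77. A gene was called higher or lower than the array median at a limma adjusted p under 0.05 (Benjamini-Hochberg over all genes). Nothing in the labels tells separate cultures from repeat hybridisations, so p-values cover only the variation of 1 array against the other, which may be purely technical.

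The frames of the listed cytosolic enzymes lay below the array median. Of the 18 listed cytosolic genes, 15 were lower, 0 were higher and 3 did not pass. Outside the list, the cytosolic prolyl gene YHR020W was higher, at 2.06 ± 0.10. YDR341C (arginyl) and CRS1 (cysteinyl), also outside it, were lower, at -0.29 ± 0.10 and -1.16 ± 0.11. The means of all 18 were below 0, and 17 were below 0 on both arrays. Across all 5559 genes measured in the frame, 42.9% were lower and 39.0% were higher. The median cytosolic frame stood at -0.56, against -0.06 over all genes. The class mean was -0.66 ± 0.08 over the cytosolic genes and 0.19 ± 0.03 over all genes.

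The lowest frame of all 31 belonged to GLN4, the glutaminyl-tRNA synthetase gene (chromosome 15, 649304 to 651733, forward strand, in the coordinates of the files, for which the sources used here name no build). Its values were -1.27 and -1.47, a mean of -1.37 ± 0.14 or 2.59-fold below the median probe (limma adjusted p = 1.2e-05), and 98.4% of genes stood higher. MES1, the methionyl-tRNA synthetase gene (chromosome 7, 1019605 to 1021860), followed at -1.06 and -1.26 (limma adjusted p = 2.5e-05). CDC60, which codes for the leucyl enzyme, had -1.12 and -1.13 (limma adjusted p = 2.0e-05). For these 3 genes both arrays lay more than 1 log2 unit below the median. GUS1, the glutamyl-tRNA synthetase gene, had -1.06 and -1.16 (limma adjusted p = 2.4e-05). VAS1, the valyl-tRNA synthetase gene, had -0.94 and -1.20 (limma adjusted p = 4.6e-05). The proteins of MES1 and GUS1 are known to form a complex with the cofactor Arc1, and the ARC1 frame was also lower, at -0.83 and -0.70.

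Another 10 cytosolic genes were lower by smaller amounts, from -0.91 ± 0.04 for HTS1 (histidyl) to -0.40 ± 0.02 for DPS1 (aspartyl). Between them lay GRS1 (glycyl) at -0.70 ± 0.22, ILS1 (isoleucyl) at -0.65 ± 0.13, DED81 (asparaginyl) at -0.57 ± 0.06 and TYS1 (tyrosyl) at -0.56 ± 0.08. FRS1, the beta subunit of the cytosolic phenylalanyl enzyme, stood at -0.55 ± 0.13 and ALA1 (alanyl) at -0.52 ± 0.01. THS1 (threonyl) stood at -0.43 ± 0.04 and SES1 (seryl) at -0.41 ± 0.07. The call of SES1 was lost with loess normalization within arrays (limma adjusted p = 0.050).

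The 3 cytosolic genes that did not pass lay close to the median of all genes. KRS1, the lysyl-tRNA synthetase gene, had -0.14 and -0.21 (limma adjusted p = 0.11). Without the filter on dim probes KRS1 passed as lower, at -0.27 ± 0.06 (limma adjusted p = 0.025). All 6 of its frame probes were used in either case. What moved was the array median, which then included dim probes. FRS2, the alpha subunit of the cytosolic phenylalanyl enzyme, had -0.14 and -0.13 (limma adjusted p = 0.20). WRS1, the tryptophanyl-tRNA synthetase gene, had 0.05 and -0.12 (limma adjusted p = 0.75), so its arrays lay on either side of 0. The FRS2 value rests on 4 of 6 probes, since 2 in the later part of the frame carried an outlier flag. With flagged probes kept it was -0.58 ± 0.12 (limma adjusted p = 0.00096). It also passed as lower without the filter on dim probes (limma adjusted p = 0.042) and with the median of its probes (limma adjusted p = 0.00014). No frame probe of FRS2 was dim, so without that filter only the array median moved.

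ALA1, GRS1, HTS1 and VAS1 are known to supply both compartments from 1 gene. All 4 were lower, with a mean of -0.80 ± 0.09, against -0.62 ± 0.08 for the other 14 cytosolic genes.

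The frames of the mitochondrial enzymes covered a range from well below to above the array median. Of 13 genes, 7 were lower, 1 was higher and 5 did not pass, and 10 were below 0 on both arrays. Their median was -0.42 and their mean -0.33 ± 0.05.

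MSD1, the mitochondrial aspartyl-tRNA synthetase gene (chromosome 16, 355698 to 357674, forward strand), was the lowest, at -0.86 and -0.80 (limma adjusted p = 9.1e-05). MSE1 (glutamyl) had -0.88 and -0.71, and MSM1 (methionyl) had -0.68 on both arrays. NAM2, the leucyl enzyme, which is also known to be needed for the splicing of mitochondrial introns, had -0.81 and -0.45. All 4 of these frames were lower on both arrays, and NAM2 had the largest distance between its arrays of all 31 genes. MSF1 (phenylalanyl) stood at -0.58 ± 0.00, MSW1 (tryptophanyl) at -0.48 ± 0.10 and MST1 (threonyl) at -0.42 ± 0.02. The call of MSW1 was lost with loess normalization (limma adjusted p = 0.061).

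The exception on the high side was DIA4, the gene of the probable mitochondrial seryl-tRNA synthetase (chromosome 8, 127774 to 129114, forward strand). It had 0.50 and 0.39, a mean of 0.45 ± 0.08 or 1.36-fold above the median probe (limma adjusted p = 0.0026), and none of the other 30 listed genes was called higher. With normexp background correction or the median of its probes the value was 0.28 and still passed. MSR1 (arginyl) had 0.02 and 0.16 (limma adjusted p = 0.39), and MSK1 (lysyl) had -0.02 and 0.04 (limma adjusted p = 0.95). ISM1 (isoleucyl) had -0.11 and -0.02 (limma adjusted p = 0.51). These 3 genes were within 0.2 of the array median on both arrays. SLM5 (asparaginyl) had -0.21 and -0.00 (limma adjusted p = 0.33). MSY1 (tyrosyl) had -0.25 and -0.14 (limma adjusted p = 0.080). It passed as lower with the median of its probes in place of the mean, at -0.34 ± 0.10 (limma adjusted p = 0.015). It also passed with normexp (limma adjusted p = 0.041), without the filter on dim probes (limma adjusted p = 0.019) and with flagged probes kept (limma adjusted p = 0.031). No frame probe of MSY1 was dim, so without the dim filter only the array median moved.

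**Figure D1:**
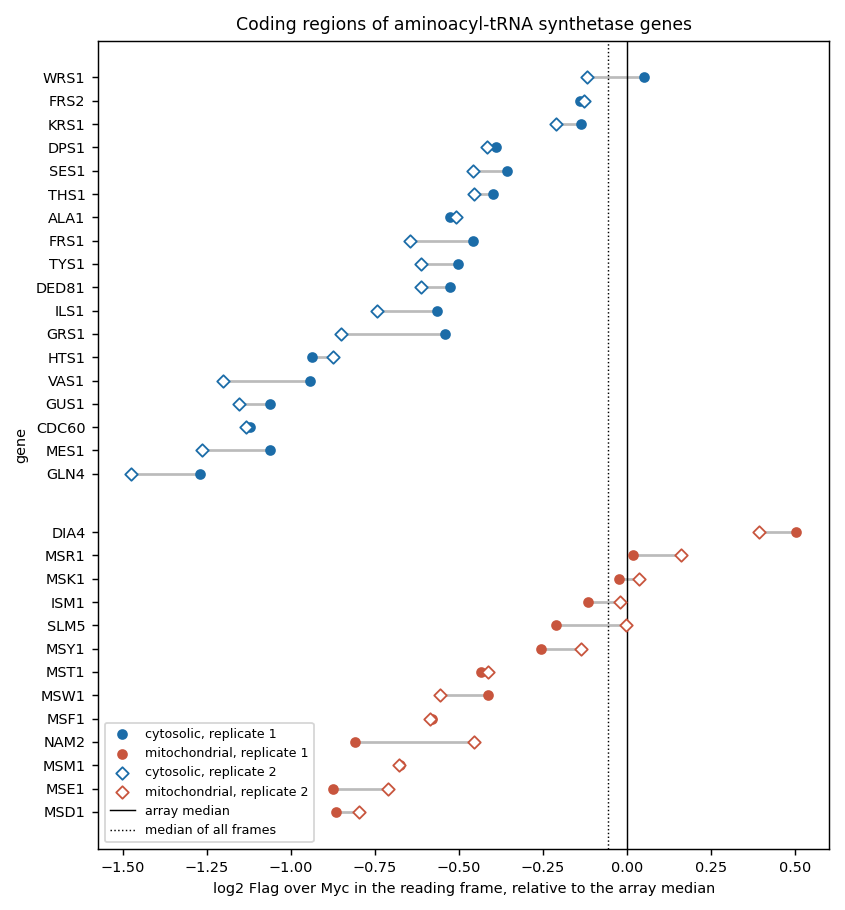
Frame values of the 31 synthetase genes on each array, as the median-centred log2 ratio of Flag to Myc (horizontal axis), with filled circles for replicate 1 and open diamonds for replicate 2. Cytosolic genes (top) run from GLN4 at -1.37 to WRS1 at -0.03, and mitochondrial genes (bottom) from MSD1 at -0.83 to DIA4 at 0.45; the dotted line is the median of all frames, -0.06.

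Set against each other, the cytosolic class mean in the frame was below the mitochondrial one by 0.24 on replicate 1 and 0.43 on replicate 2. The difference, cytosolic minus mitochondrial, was -0.33 ± 0.13, a 1.26-fold lower ratio. It is given as a description, because genes are not replicates and with 2 arrays the smallest two-sided p of an exact sign-flip test is 0.5. The classes overlapped widely: the SD across genes was 0.39 in each. The synthetase genes outside the list, among them the high YHR020W, are not part of these class means. Taken between class medians, the difference was -0.17 ± 0.07.

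Frame length moved with these values. Cytosolic genes had a median frame length of 1896 bp, mitochondrial genes 1611 bp and all frames 1212 bp. Across genes, which are not independent replicates, the Spearman correlation of the frame value with length was -0.61 over the 18 cytosolic genes, -0.13 over the 13 mitochondrial genes and -0.50 over all 5559 genes. Each gene was therefore also set against the median of all genes in the same one of 10 length groups. On that scale 10 cytosolic genes were lower, 1 was higher and 7 did not pass, with a mean of -0.22 ± 0.10. Of the mitochondrial genes, 6 were lower, 4 were higher and 3 did not pass, with a mean of -0.04 ± 0.03. Over all genes 37.5% were lower and 38.5% higher on this scale.

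GLN4 stayed the lowest member against genes of its own length, at -0.78 ± 0.18 (limma adjusted p = 0.00051). ISM1, with a long frame of 3009 bp, had the highest value, 0.75 ± 0.05 (limma adjusted p = 0.00033), followed by DIA4 at 0.60 ± 0.11. ALA1, lower than the array median, was higher than genes of its length at 0.29 ± 0.01 (limma adjusted p = 0.018). The class difference on this scale was -0.09 on replicate 1 and -0.28 on replicate 2, a mean of -0.19 ± 0.13.

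Averaged over the promoter, the cytosolic class mean was above the mitochondrial one, though not in the far part of the upstream window. A promoter value is the mean of used probes within 500 bp upstream of the start codon and in no frame, and a probe between divergent genes counts for both. Of the 14 cytosolic genes with such a value, all 14 were higher than the array median; with loess normalization 12 were. Of 11 mitochondrial genes, 6 passed as higher and 1 as lower, and 4 did not pass. Across all 4528 promoters measured, 75.9% were higher and 6.98% lower, so a promoter above the array median was the common case. The means were 1.33 ± 0.11 for cytosolic genes, 0.88 ± 0.12 for mitochondrial genes and 1.08 ± 0.06 for all genes.

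FRS2 had the highest promoter of the 31 genes, with 2.65 and 3.00, a mean of 2.83 ± 0.24 or 7.09-fold above the median probe (limma adjusted p = 4.8e-61). The value is from 1 probe, 494 bp upstream, since 2 nearer probes were dim. The frame of GAT1, in the opposite direction, lies 955 bp from FRS2, so this probe is slightly closer to GAT1. SLM5 had 2.93 and 2.33 (limma adjusted p = 3.7e-53), and NAM2 had 2.52 and 2.21 (limma adjusted p = 1.3e-43). The highest promoters thus belonged to both classes, and each lay above 2 on both arrays. KRS1 had 2.45 and 1.94 (limma adjusted p = 6.6e-38), and ISM1 had 1.68 and 2.19 (limma adjusted p = 6.6e-30). The KRS1 value is also from 1 probe, 408 bp upstream, since the nearer probe was dim. The frame of EHD3, in the opposite direction, lies 726 bp from KRS1, so the probe is closer to EHD3. The SLM5 value averages 3.68 ± 0.17 at 338 bp and 1.57 ± 0.68 at 134 bp upstream. The frame of YCR024C-B, in the same direction, begins 376 bp upstream of SLM5, close to the farther probe, and stood at 2.97 ± 0.21. The p-values of promoters are this small because limma gave every promoter the same spread.

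The 5 lowest promoters were all of mitochondrial genes, though the highest of these, MST1 at 0.33, lay close to the cytosolic GRS1 and DPS1, both at 0.36. MSY1 had -0.09 and -0.77 (limma adjusted p = 0.013) and was the 1 member called lower; the call was lost with loess normalization (limma adjusted p = 0.14). MSD1 had -0.08 and -0.42 (limma adjusted p = 0.15), and MSM1 had -0.08 and -0.09 (limma adjusted p = 0.64). In each of these 3 promoters both arrays were below 0. MSE1 had 0.03 and -0.08 (limma adjusted p = 0.91). MST1 had 0.48 and 0.18 (limma adjusted p = 0.058). The MSM1, MSE1 and MST1 values are each from 1 probe, and that of MST1, 6 bp upstream, reaches into the frame. Some calls were gained under other settings. With loess normalization MSD1 was lower (-0.43, limma adjusted p = 0.020) and MST1 was higher (0.58, limma adjusted p = 0.0014). With normexp background correction MSM1 was higher (0.32, limma adjusted p = 0.024). With upstream probes in other frames included, MSD1 and MSM1 were lower and MST1 was higher. The lowest cytosolic promoters were GRS1, with 0.33 and 0.39 (limma adjusted p = 0.040), and DPS1, with 0.54 and 0.18 (limma adjusted p = 0.037). The call of GRS1 was lost with loess normalization (limma adjusted p = 0.80), without the filter on dim probes and with the median of its 3 probes, and that of DPS1 with normexp background correction, without the filter and with a promoter of 300 bp.

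The promoter difference, cytosolic minus mitochondrial, was 0.44 and 0.46 on the arrays, a mean of 0.45 ± 0.01. Probe coverage differed between the classes here. Among cytosolic promoter probes 11 of 31 were too dim to use, against 2 of 20 mitochondrial ones and 27.2% over all genes. ALA1, FRS1, GLN4 and VAS1 of the cytosolic genes and DIA4 and MSF1 of the mitochondrial genes had no used promoter probe. Without the filter on dim probes the difference was 0.17 ± 0.07. Of the cytosolic genes 11 rest on 1 promoter probe, as do 6 of the mitochondrial genes.

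The neighbourhood of the genes differed as well. The nearest placed frame upstream ran in the opposite direction for 14 of 18 cytosolic genes and 6 of 13 mitochondrial genes. Frames that were not placed were not searched, and for DPS1 the frame found, BPT1, lies 4856 bp away. Over all genes that share was 52.1%. A used promoter probe was shared with another gene for 9 cytosolic and 6 mitochondrial genes. The part of this arrangement in the promoter values was not tested.

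Within single genes the step between promoter and frame was large. In all 14 cytosolic genes with both values the promoter was higher than the frame, and in 10 of 11 mitochondrial genes, with MSY1 as the exception. Over all 4380 genes with both values, the promoter was higher in 69.3% and lower in 10.4%. The mean difference, promoter minus frame, was 1.93 ± 0.04 for cytosolic genes, 1.26 ± 0.19 for mitochondrial genes and 0.89 ± 0.10 for all genes.

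NAM2 had the largest difference, 3.33 and 2.67, so that its promoter stood 7.98-fold above its frame (limma adjusted p = 4.6e-09). FRS2, with its 1 promoter probe slightly closer to GAT1, had 2.79 and 3.12, or 7.77-fold (limma adjusted p = 2.6e-09). GUS1 had 2.80 and 2.89, HTS1 had 3.03 and 2.64, SLM5 had 3.14 and 2.33, and CDC60 had 2.50 and 2.95. All 6 differences were above 2.3 on both arrays. Without the filter on dim probes the CDC60 promoter was 0.41 ± 0.10 in place of 1.60 ± 0.31 and its difference 1.64 ± 0.12, and with a promoter of 300 bp the SLM5 promoter was 1.57 and its difference 1.68. The frames of NAM2, GUS1, HTS1 and CDC60 were lower than the array median, while the FRS2 and SLM5 frames did not pass. MSY1 had 0.16 and -0.63 (limma adjusted p = 0.30), with arrays on either side of 0. The Spearman correlation between promoter and frame was -0.00 over 14 cytosolic genes, 0.47 over 11 mitochondrial genes and 0.48 over all 4380 genes, across genes that are not independent and whose probes share an array.

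**Figure D2:**
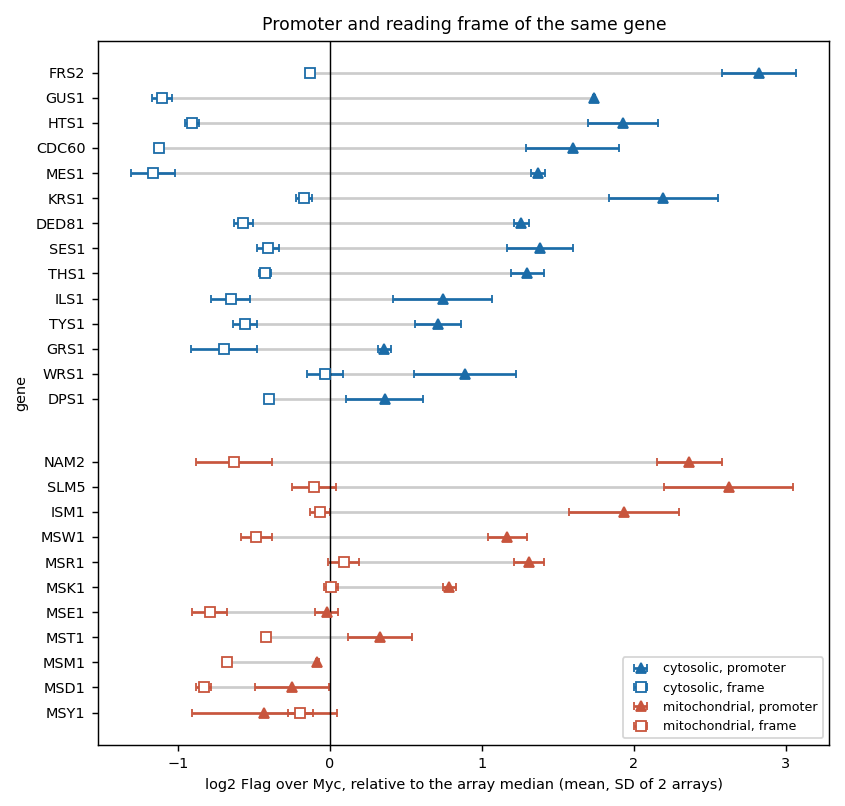
Promoter (triangles) and frame (squares) of the 25 synthetase genes with both values, as the mean of 2 arrays with bars for the SD, as the median-centred log2 ratio of Flag to Myc, ordered within each class by the difference. All 14 cytosolic promoters lie above their frames, by 0.76 to 2.96, and in MSY1 the promoter, at -0.43, lies below the frame, at -0.20.

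Along the frame the ratio formed a trough. In the first of 5 equal parts of the frame the cytosolic mean was 0.21 ± 0.04, in the middle part -1.36 ± 0.15 and in the last part -0.23 ± 0.06. The mitochondrial means were 0.22 ± 0.09 in the first part, -0.81 ± 0.11 in the middle part and -0.01 ± 0.02 in the last. Over all genes these parts stood at 0.48 ± 0.05, -0.36 ± 0.04 and 0.27 ± 0.01. Cytosolic minus mitochondrial was -0.01 ± 0.13 in the first part, with opposite signs on the 2 arrays, and -0.55 ± 0.25 in the middle part, -0.37 on replicate 1 and -0.73 on replicate 2. Within 250 bp upstream it was 0.42 ± 0.07, and between 500 and 250 bp upstream it had the other sign, -1.08 ± 0.01, over 8 cytosolic and 3 mitochondrial genes. The genes with a used probe differ between parts, so these means are not over one fixed set of genes.

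**Figure D3:**
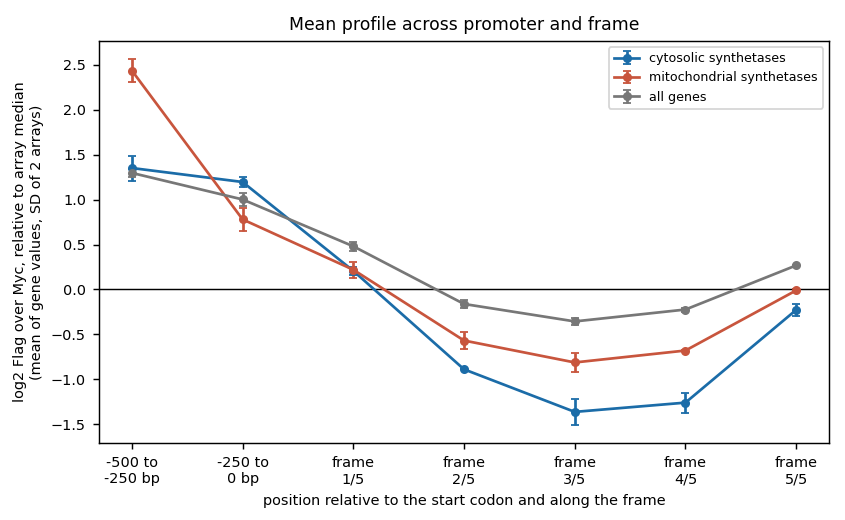
Mean median-centred log2 ratio of Flag to Myc (vertical axis) in 2 windows upstream of the start codon and in 5 equal parts of the frame (horizontal axis), for cytosolic genes, mitochondrial genes and all genes, with bars for the SD of the 2 arrays. The lines of both synthetase classes cross from above 1 upstream, or 0.78 for mitochondrial genes within 250 bp, to a lowest point of -1.36 and -0.81 in the middle of the frame; the far upstream point of the mitochondrial genes rests on 3 genes.

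With the frame cut into 3 equal parts, the middle part was the lowest on both arrays in 15 of the 16 cytosolic genes that had a probe in each part, HTS1 being the exception. That held for 7 of 13 mitochondrial genes, and for 48.7% of 3847 genes overall or 55.0% of the 2461 genes within the members' range of lengths. The difference between first and last part went both ways. It was positive at a limma adjusted p under 0.05 in 8 cytosolic and 6 mitochondrial genes and negative in 4 of each, against 41.3% and 29.5% of all genes.

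The members with the steepest fall along the frame were SES1 and NAM2. In SES1 the first part minus the last part was 2.83 and 2.21 (limma adjusted p = 1.7e-41). Its probes, counted from the start codon, stood at 1.80 at 128 bp, then at -0.69, -0.99 and -1.43 up to 864 bp, and at -0.73 at 1172 bp. In NAM2 the same difference was 2.09 and 2.70 (limma adjusted p = 8.9e-38). For this difference too limma gave every gene the same spread. Its p-values therefore do not reflect a gene's own spread between arrays, an SD of 0.44 in SES1 and 0.43 in NAM2. The opposite slope was found in GRS1, with -1.39 and -0.85 (limma adjusted p = 2.2e-09), in MSF1, with -1.36 and -0.88, and in MSE1, with -0.99 and -0.96.

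Single probes show where the frame values come from. Of 126 probes in cytosolic frames, 80 were lower than the array median, 14 were higher, 22 did not pass and 10 were not used. Of 78 probes in mitochondrial frames, 39 were lower, 12 higher, 23 did not pass and 4 were not used. Over all 34899 used probes 40.1% were lower and 40.5% higher.

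GLN4 was low over nearly its whole length. Its first probe, at 162 bp, stood at -0.05 ± 0.11 (chromosome 15, 649436 to 649495), the next at -1.22 ± 0.28, and the lowest, at 1598 bp, at -2.05 ± 0.25 (limma adjusted p = 1.7e-19). The last probe, at 2326 bp, was at -1.19 ± 0.37. WRS1, the highest cytosolic frame, had a high first probe of 1.30 ± 0.03 at 56 bp, a low one of -1.17 ± 0.63 at 748 bp, and values of -0.14 ± 0.09 and -0.13 ± 0.09 beside it. Its mean near 0 therefore averages a high start and a low middle, and the low probe stood at -0.72 on replicate 1 and at -1.62 on replicate 2.

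In DIA4 the first probe stood at 1.30 ± 0.14 (104 bp) and the next at 0.62 ± 0.26 (502 bp), while the later ones were at -0.06 ± 0.06 and -0.07 ± 0.03. The higher call of DIA4 thus came from the earlier part of its frame. MSD1 had no high probe in the frame: its values ran from -1.26 ± 0.11 at 762 bp to -0.32 ± 0.00 at 1170 bp, and the promoter probe nearest to the start codon was lower too, at -0.59 ± 0.30. NAM2 went from 2.38 ± 0.02 in the promoter probe 30 bp upstream to 1.20 ± 0.57 at 98 bp and to -1.70 ± 0.13 at 1750 bp. In MSY1 all used frame probes lay between -0.44 and 0.22 and both promoter probes were below 0, so that no step was seen at its start.

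**Figure D4:**
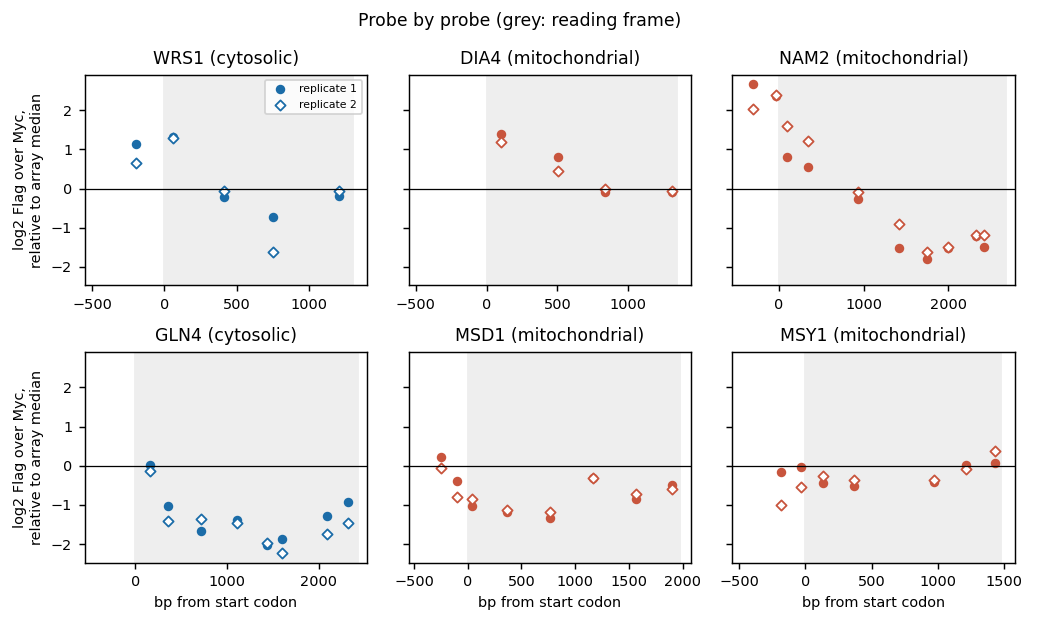
Each used probe of 6 genes by distance of its midpoint from the start codon in bp (horizontal axis) and median-centred log2 ratio of Flag to Myc (vertical axis), with circles for replicate 1 and diamonds for replicate 2; grey marks the frame, and probes upstream are promoter probes. The highest and lowest frame of each class are shown (WRS1, GLN4, DIA4 and MSD1), with the genes of largest (NAM2, 3.00) and smallest (MSY1, -0.24) promoter minus frame difference.

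Within the list, a cytosolic and a mitochondrial enzyme for the same amino acid could be set side by side for 12 amino acids. Pairs that need a gene from outside the list are not counted here. These are proline (YHR020W at 2.06 ± 0.10, AIM10 at -0.96 ± 0.18) and arginine (YDR341C at -0.29 ± 0.10, MSR1 at 0.09 ± 0.10). The proline genes lie much further apart than any listed pair, with the cytosolic gene above. In the frame the cytosolic gene was below its mitochondrial counterpart on both arrays in 8 pairs, above it in 3, and the sign differed between arrays in 1. The median difference, cytosolic minus mitochondrial, was -0.34. These differences are descriptions, with no test over pairs.

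The largest among the listed pairs was for serine, where SES1 had -0.36 and -0.46 and DIA4 had 0.50 and 0.39, a difference of -0.85 ± 0.01. For isoleucine, ILS1 had -0.56 and -0.74 and ISM1 had -0.11 and -0.02, a difference of -0.59 ± 0.19. For leucine, CDC60 had -1.12 and -1.13 and NAM2 had -0.81 and -0.45, a difference of -0.50 ± 0.26. In these 3 pairs the cytosolic gene was the lower one on each array.

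The smallest difference was for threonine, where THS1 had -0.40 and -0.45 and MST1 had -0.43 and -0.41, a difference of -0.00 ± 0.06 within the spread of the arrays. For lysine, KRS1 had -0.14 and -0.21 and MSK1 had -0.02 and 0.04, a difference of -0.18 ± 0.10. For phenylalanine, FRS1 and FRS2 together had -0.30 and -0.39 and MSF1 had -0.58 on both arrays, a difference of 0.24 ± 0.06. The other listed pairs with the cytosolic gene above were tryptophan (WRS1 and MSW1, 0.45 ± 0.02) and aspartate (DPS1 and MSD1, 0.43 ± 0.07). The pairs between these extremes were methionine at -0.49 ± 0.14, asparagine at -0.46 ± 0.21, tyrosine at -0.36 ± 0.16 and glutamate at -0.32 ± 0.18.

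**Figure D5:**
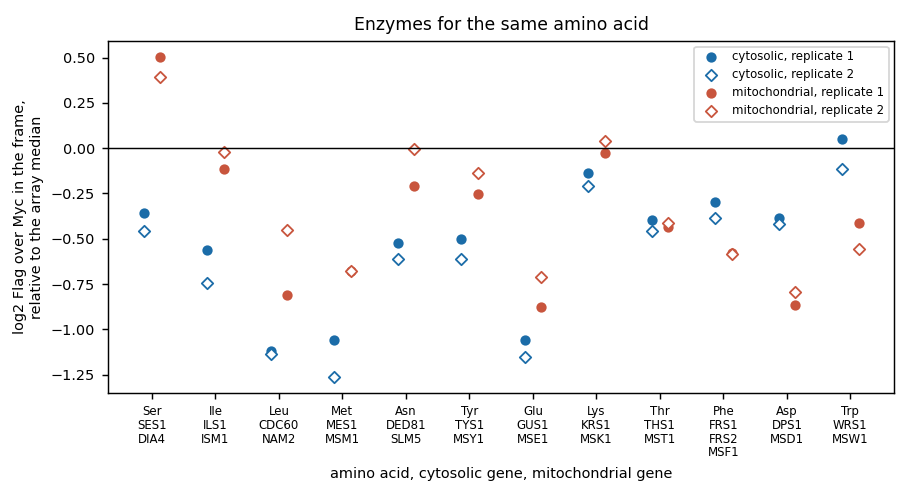
Frame values on each array of the cytosolic gene (left in each pair) and the mitochondrial gene (right) for 12 amino acids, ordered by their difference, as the median-centred log2 ratio of Flag to Myc; circles are replicate 1 and diamonds replicate 2, and the cytosolic phenylalanine value is the mean of FRS1 and FRS2. The pairs run from serine, with the cytosolic gene lower by 0.85, to tryptophan, with a difference of 0.45 in the other direction.

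In promoters 10 pairs of the list could be set side by side, and the cytosolic gene was above on both arrays in 6, below in 3 and mixed in 1. For glutamate the difference was 1.76 ± 0.07 (GUS1 with 1.74 and 1.73, MSE1 with 0.03 and -0.08), for methionine 1.45 ± 0.04 and for lysine 1.41 ± 0.32. The opposite was found for asparagine, at -1.37 ± 0.37 (DED81 with 1.29 and 1.22, SLM5 with 2.93 and 2.33), for isoleucine at -1.19 ± 0.69 and for leucine at -0.77 ± 0.52. Among the listed pairs, the mitochondrial gene was thus the higher one in the promoter and in the frame for isoleucine, leucine and asparagine. The cytosolic one was for aspartate.

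Beyond the 31 genes, a list of 21 other genes of tRNA charging and its surroundings was described in the same way: synthetases outside the list, the mitochondrial amidotransferase, elongation factors, tRNA processing and export factors, and sensors of uncharged tRNA. In the frame 8 passed as higher and 11 as lower, and 2 did not pass, with a median of -0.29, beside 39.0% higher and 42.9% lower over all genes. The spread across these genes (SD 1.48) was far wider than across the 31 listed synthetase genes (SD 0.42). Across all genes it was 1.12. The highest was GCN4, the transcription activator whose translation rises when uncharged tRNA accumulates, at 3.46 and 3.34 (limma adjusted p = 2.4e-07). TEF1 and TEF2, which code for the elongation factor that brings charged tRNA to the cytosolic ribosome, followed at 2.57 ± 0.08 and 2.46 ± 0.25, but they are near-identical copies with 1 and 2 probes, so their values cannot be taken as separate.

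The lowest were GCN2, the protein kinase that senses uncharged tRNA, at -1.30 and -1.20 (limma adjusted p = 1.3e-05), PET112, a subunit of the mitochondrial amidotransferase, at -1.16 ± 0.03, and CRS1, the cysteinyl-tRNA synthetase gene, at -1.16 ± 0.11. Of 14 promoters measured in this list, 9 passed as higher and 5 did not pass, beside the 75.9% called higher over all promoters.

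ARC1, named above, and 3 synthetases outside the 31 genes were singled out after their values were seen. YHR020W, which codes for the cytosolic prolyl-tRNA synthetase (chromosome 8, 143989 to 146055, forward strand), had a frame value of 2.13 and 1.98 (limma adjusted p = 1.4e-06), 4.16-fold above the median probe and above every one of the 31 members. It lies 437 bp from DED81 in the opposite direction, and the 2 genes share a used promoter probe at 1.26 ± 0.05. On one side of it the DED81 frame was at -0.57 ± 0.06 as a whole, with -1.37 ± 0.07 at the probe 898 bp from the start codon and 0.69 ± 0.07 at the last probe. On the other side the YHR020W frame stood at 1.29 ± 0.14 at 208 bp and at 2.84 ± 0.11 at 1866 bp. YDR341C, the cytosolic arginyl-tRNA synthetase gene, had -0.22 and -0.37 (limma adjusted p = 0.020), against 0.02 and 0.16 in its mitochondrial counterpart MSR1. AIM10, the gene of the probable mitochondrial prolyl enzyme, had -1.09 and -0.84.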

How the data were processed

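Each array is a 2-colour Agilent 44K tiling array of 1 replicate (60 bp probes, 267 bp median spacing). Per the file headers, the authors extracted the spot intensity values in Agilent Feature Extraction 8.5.1.1, with background subtraction, dye normalization and surrogates for signals not above background. The deposited log10 ratio has red (Myc) above green (Flag). The deposited value table holds log2 Myc over Flag of the same signals (largest deviation 4.90e-08), uncentred (array medians 0.37 and 0.35), and was used with the sign turned.

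The log2 of processed green over red intensity was centred on each array's median (-0.46 before centring on both), with no loess. Of 41282 nuclear probes, 3964 were left out as dim (a channel not well above background on some array) and 2419 for an outlier flag, 0 were saturated, and 136 mitochondrial probes were not used. The number of arrays limits the precision.

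Left ends of frames were derived from the distances listed per probe, and right ends by adding lengths from the RefSeq gene table of assembly R64, which matched 5927 of 6593 frames; 49 whose position contradicted their neighbours by over 50 bp were left out. Introns count as frame. Used probes of a region were averaged per gene.

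Tests were limma 3.58.1 in R 4.3.3 (intercept, eBayes, Benjamini-Hochberg over all features at 0.05), tested on simulated data. The simulation drew independent values from the spread limma had estimated and changed few features, whereas most regions passed here. It checks the code and cannot show that the calls hold in these arrays. The members and lists were chosen with earlier results of these data known. Values of both arrays are given for the 5 highest and lowest frames and promoters, every member that did not pass, and the 3 most and least different amino acid pairs. Alternatives were loess, normexp (offset 50), scaled arrays, filters, probe medians, region limits, length groups, the value table and leaving out an array. When a filter was changed, each array was centred again on the probes then used. Sequences were not used here.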

Additional observations from a re-analysis of the deposited data

How the results depend on the processing

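The class difference in the frame (cytosolic minus mitochondrial, -0.33) was -0.19 against genes of the same length and -0.17 between class medians, and ran from -0.43 to -0.24 when an array was left out. The promoter class difference (0.45) was 0.31 with loess, 0.33 with normexp, 0.17 without the filter on dim probes, 0.48 with flagged probes kept, 0.35 with promoters of 300 bp, 0.43 with upstream probes in other frames included, 0.48 without the 4 genes that supply both compartments and 0.52 between class medians; it kept its sign in all of these. Against genes of the same length, 1 cytosolic gene in place of 0 and 4 mitochondrial genes in place of 1 were higher in the frame. With upstream probes in other frames included, 1 cytosolic gene in place of 0 and 3 mitochondrial genes in place of 1 were lower in the promoter, and 1 mitochondrial gene in place of 0 had a promoter lower than its frame. Against genes of the same length the frame values of ALA1 (0.29), ILS1 (0.16) and THS1 (0.17) turned sign. So did those of ISM1 (0.75), FRS2 (0.13), KRS1 (0.13), WRS1 (0.11), MSY1 (0.063) and SLM5 (0.15), which had not passed against the array median. Elsewhere the sign turned only in values that had not passed, in frames of FRS2 (0.15, whole probes in the frame), WRS1 (0.037), ISM1 (0.12), SLM5 (0.036), MSR1 (-0.068) and MSK1 (-0.042) with loess, of MSK1 with normexp (-0.12), without the dim filter (-0.091) and with probe medians (-0.19), and of MSR1 without the dim filter (-0.0070) and with probe medians (-0.013), and in promoters of MSM1 (0.32), MSD1 (0.093) and MSE1 (0.081) with normexp and MSE1 (0.018) with loess. Of these turned values, the MSM1 promoter passed as higher with normexp (limma adjusted p = 0.024). With 1 array left out, the frames of WRS1 (-0.12 to 0.050) and MSK1 (-0.025 to 0.037), the MSE1 promoter (-0.075 to 0.033) and the MSY1 difference (-0.63 to 0.16) changed sign. Without the dim filter the array median included dim probes, so the zero of every value moved. The cause of the other changes was not tested. Apart from the length scale and left-out arrays, 227 of 248 frame values of the 31 genes under the alternatives kept their direction and side of the threshold, as did 204 of 222 promoter values and 241 of 247 promoter minus frame differences. These counts include the deposited value table, which holds the same signals, so its agreement was fixed in advance. Scaling the arrays also left the class differences nearly as they were (-0.334 in the frame, 0.448 in the promoter). Counts were not recomputed with an array left out, since 1 array leaves no residual degrees of freedom. No paired analysis was possible because the arrays form 1 group. Most promoters rest on 1 or a few probes. Dim probes leave 4 cytosolic promoters and 1 mitochondrial promoter (DIA4) without a value, and an outlier flag leaves MSF1 without one.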
